A study of Mus musculus with 11 samples.

Results

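Macrophages are the most numerous leukocytes of the healthy heart, and 34 genes that mark them and related myeloid cells are described here across whole mouse hearts with and without the fatty acid transporter gene Cd36. The genes were chosen by name, as 6 genes often used to mark resident-type macrophages (Cd163, Lyve1, Timd4, Folr2, Mrc1 and Cbr2) and a set of general myeloid genes. Of the 34 names, 32 stood as symbols among the 23420 genes of the deposited table. Adgre1 and Spi1 stood there under their older symbols Emr1 and Sfpi1, matched through RefSeq synonyms, and are given by value but not counted below. All 32 counted genes, 6 resident-type and 26 general, passed a filter on low values (a mean of at least 10 normalized reads over all libraries), which 12976 genes passed.

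The hearts came from 4 groups, with 1 library per label number. CM KO (3 libraries) carried a cardiomyocyte deletion of Cd36 through MHC-cre, EC KO (3 libraries) an endothelial deletion through Tie2-cre, and Total KO (3 libraries) was labelled a total deletion, and the labels are silent on its making. Control (2 libraries) had no Cre named. Every library, Control included, carried the same strain label, a cross between mice with loxP-flanked Cd36. The labels gave neither age nor sex, and did not state whether libraries were from separate animals, so p-values measure only the spread between these libraries. The study's design text asks what endothelial Cd36 does for the handling of lipid and glucose; the myeloid genes were a readout of the same RNA.

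Heart macrophages clear dying cells and debris, sense pathogens and bind immune complexes. Those seeded early in life, which renew themselves in the tissue, are usually recognised by Timd4, Lyve1 and Folr2, while cells that derive from blood monocytes carry Ccr2. Survival of the lineage depends on the receptor Csf1r and on the transcription factor encoded by Spi1. Macrophages themselves use Cd36 as a scavenger receptor, and Tie2-cre is known to act in blood-forming cells as well as in endothelium, so the labelled cell type of a deletion does not say whether macrophages kept the gene. Because whole tissue was sequenced, more cells of a type and more RNA per cell cannot be told apart in any value below.

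Cd36, the targeted gene, had 15792, 21610.2 and 21363 normalized reads in CM KO, 30308, 27804 and 25758 in EC KO, 18847, 23452 and 21266 in Total KO, and 44529.6 and 35425 in Control. Every knockout library was below both Control libraries, and Cd36 RNA was detected in all of them, Total KO included. Only CM KO passed the test against Control, by -1.03 ± 0.17 on the log2 scale (SE; limma, Benjamini-Hochberg adjusted p = 0.00863). The difference was -0.51 (adjusted p = 0.298) in EC KO and -0.91 (adjusted p = 0.0809) in Total KO. Libraries held 11157062 to 20105673 recovered reads, except EC KO replicate 1 with 2268403, where 1 read stood for 6.04 normalized reads and 3 reads for 18.1. The label numbers ran in separate stretches for 3 sets of libraries (CM KO; Total KO; Control with EC KO), with no statement of what they stand for; whatever the numbers stand for and the CM KO deletion cannot be told apart.

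Macrophage RNA was present in every group at a small share of the library. The 32 genes together took 0.229%, 0.112% and 0.140% of the reads of the CM KO libraries, 0.0542%, 0.0526% and 0.0609% in EC KO, 0.0527%, 0.0758% and 0.0606% in Total KO, and 0.0612% and 0.0641% in Control. Ordered by mean normalized reads per kilobase of exon in Control, Lyz2 (lysozyme, 1125), C1qb (517), C1qa (517) and C1qc (323), the chains of complement C1q, led. The signalling adaptor gene Tyrobp (197) and the growth factor receptor gene Csf1r (179) came next. The lowest were Ptprc (5.26), Ms4a7 (5.20) and Timd4 (5.11), so that the standard marker of long-lived resident macrophages was the lowest gene of the set per length. These 3 did not differ from one another beyond the spread of the Control libraries, which read 14.8 and 7.46 normalized reads for Timd4. Length was the union of all annotated exons, 18313 bases for Ptprc, 4453 for Ms4a7 and 2173 for Timd4. The order therefore depends on the annotation as well as on the reads.

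In hearts labelled as lacking Cd36 in cardiomyocytes, most of the macrophage genes rose. Of the 32 genes, 24 were higher in CM KO than in Control at an adjusted p under 0.05 and 0 were lower, where 3.29% of all 12976 genes were called higher and 2.4% lower. The median difference of the 32 was 1.18 on the log2 scale, from 0.53 (Lyve1) to 1.88 (Lgals3), against a median of -0.00 over all genes tested. All 32 had each CM KO library above both Control libraries, as did 18.3% of all genes, and 30 of the 32 had each CM KO library above all 8 other libraries, as did 9.05% of all genes. With the 2 synonym-matched genes added, 25 of 34 were called. The call rests on both Control libraries and on CM KO replicate 1: without Control replicate 1, 0 of the 32 passed limma's adjusted test (26 had an unadjusted p under 0.05), without Control replicate 2, 15 passed, and without CM KO replicate 1, 14 passed. A fit to the 2 groups alone called 2.

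**Figure D1:**
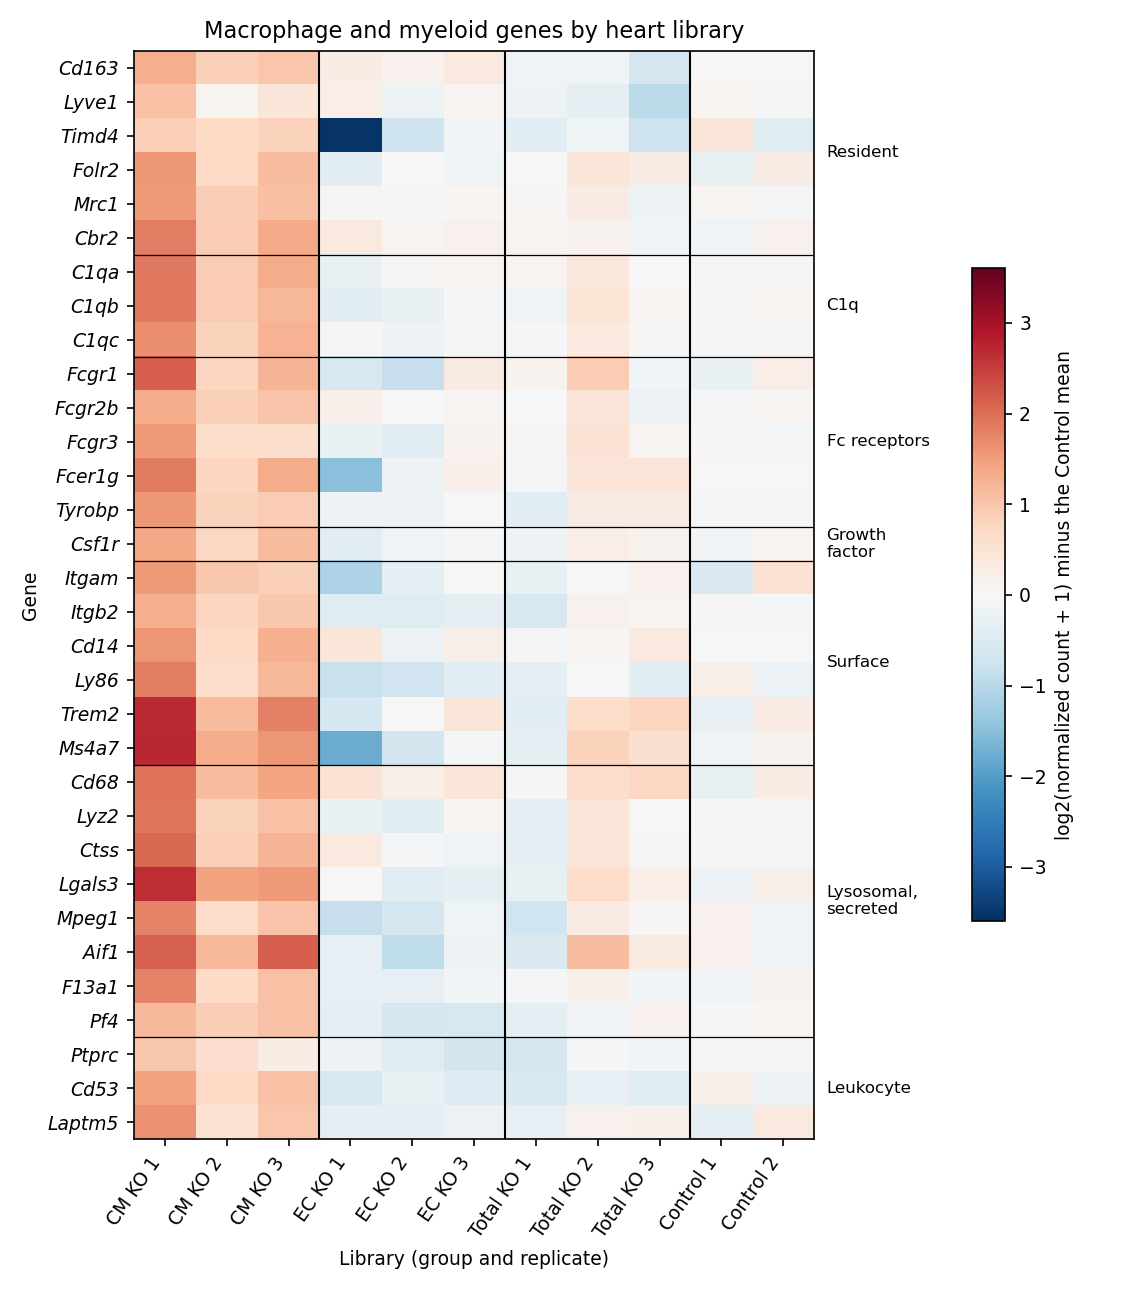
Each row is one of the 32 genes and each column one of the 11 libraries; colour gives log2(normalized count + 1) minus the Control mean, red above and blue below. The 3 CM KO columns are red, deepest in replicate 1 for all genes but Aif1, with Lyve1 in replicate 2 nearly white (0.09), and the darkest blue cell is Timd4 in EC KO replicate 1, where it was listed at 0.

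The resident-type genes are given first. Cd163, a scavenger receptor for haemoglobin bound to haptoglobin, had 1151, 844 and 936 normalized reads in CM KO, 562, 521 and 600.3 in EC KO, 425, 426 and 308 in Total KO, and 476 and 459 in Control. No range of one group touched another: CM KO was highest, then EC KO, Control and Total KO. CM KO exceeded Control by 1.05 ± 0.16 (adjusted p = 0.00669) and was at 209% of its mean. Mrc1, the mannose receptor, had 1196, 749.9 and 872 in CM KO against 427 and 391 in Control (log2 difference 1.17 ± 0.18, adjusted p = 0.00702). EC KO (389 to 425) and Total KO (359.5 to 505) overlapped the Control values of Mrc1.

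Cbr2, a carbonyl reductase gene used as a marker of resident macrophages in mice, had 593, 309 and 425 in CM KO, 211, 176 and 183 in EC KO, 177, 179 and 149 in Total KO, and 146 and 185 in Control. It had the largest difference between CM KO and Control among the 6 genes, 1.37 ± 0.22 (adjusted p = 0.00859). Folr2, a folate receptor, had 381, 212 and 279 in CM KO, 96.7, 131 and 116 in EC KO, 131, 176 and 156 in Total KO, and 108 and 154 in Control. CM KO lay above all other libraries of Folr2, and the 3 other groups overlapped (CM KO minus Control 1.12 ± 0.24, adjusted p = 0.0229).

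Lyve1 and Timd4 did not pass the test against Control. Lyve1, a hyaluronan receptor shared by resident macrophages and lymphatic endothelium, had 482, 247 and 314 in CM KO, 272, 205 and 247 in EC KO, 204, 183 and 118 in Total KO, and 245 and 218 in Control. CM KO replicate 2 was next to the higher Control library, and the difference was 0.53 ± 0.27 (adjusted p = 0.282), or 0.27 without CM KO replicate 1. Timd4, a phosphatidylserine receptor for dying cells, had 20.1, 18.1 and 19.6 in CM KO, 0, 5.85 and 9.73 in EC KO, 7.64, 9.38 and 5.84 in Total KO, and 14.8 and 7.46 in Control. The difference of Timd4 was 0.81 ± 0.80 (adjusted p = 0.624), with 1.26 without Control replicate 1 and 0.36 without Control replicate 2; in EC KO replicate 1 a count of 0 allows up to 18.1 normalized reads, about the level of CM KO, so that library sets no level for this gene.

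**Figure D2:**
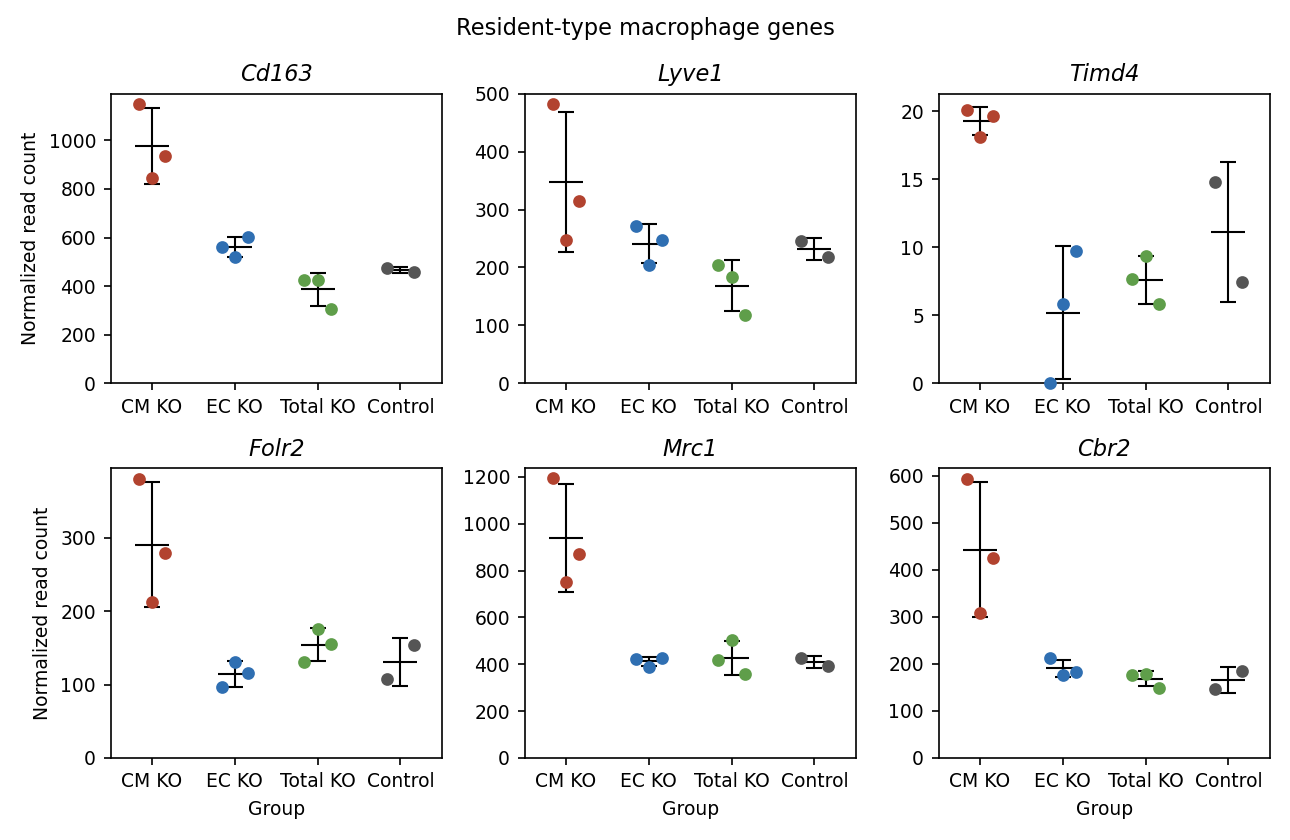
Normalized read counts of the 6 resident-type genes in CM KO, EC KO, Total KO and Control; each dot is a library, the bar is the mean and the whiskers are 1 SD. CM KO stands above the other groups for Cd163, Mrc1, Cbr2, Folr2 and Timd4, and the lowest CM KO library of Lyve1 (247) is level with the highest Control library (245).

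The C1q chains, which open the classical complement pathway and are made in tissue mainly by macrophages, were all called in CM KO. The genes lie side by side on the minus strand of mouse chromosome 4 (GRCm38): C1qb at chr4:136880129-136886187, C1qc at chr4:136889804-136893065 and C1qa at chr4:136895917-136898803. C1qa had 2012, 1021 and 1363 normalized reads in CM KO, 447, 556 and 572 in EC KO, 575, 700.0 and 539.7 in Total KO, and 525 and 549 in Control. C1qb averaged 1485 ± 547 in CM KO and 563 ± 36.7 in Control, and C1qc 1526 ± 443 in CM KO and 624 ± 31.1 in Control (SD, n = 3 and n = 2). The log2 differences were 1.39 ± 0.22 (C1qa, adjusted p = 0.00788), 1.34 ± 0.24 (C1qb, adjusted p = 0.0123) and 1.25 ± 0.19 (C1qc, adjusted p = 0.00746). The 3 chains thus moved by nearly the same amount, each with replicate 1 highest and replicate 2 lowest within CM KO.

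Of the 5 Fc receptor and adaptor genes, 3 were called higher in CM KO than in Control. Tyrobp, the adaptor that carries the signal of Trem2 and related receptors, had 388, 234 and 248 in CM KO against 127 and 136 in Control (1.10 ± 0.24, adjusted p = 0.0235). Fcgr2b, the inhibitory IgG receptor, averaged 239 ± 41.1 in CM KO and 112 ± 7.47 in Control, and Fcgr3, an activating IgG receptor, 389 ± 147 in CM KO and 194 ± 8.40 in Control. Their adjusted p-values were 0.0138 and 0.0470. Fcgr1, the high-affinity IgG receptor, and Fcer1g, the common signalling chain, had differences of 1.38 ± 0.46 and 1.32 ± 0.42 with adjusted p of 0.106 and 0.0858. Fcgr2b and Fcgr3 are similar in sequence, and Fcgr2b overlaps an exon of the opposite-strand gene Gm38204, so reads may have been split between genes; the counting mode and strand setting were not given in the sources used here. The same holds for F13a1, Folr2 and Itgam, whose exons also overlap those of other annotated genes.

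Csf1r, the receptor that keeps macrophages alive, had 2714, 1717 and 2276 in CM KO, 792, 924 and 974 in EC KO, 918, 1229 and 1136 in Total KO, and 971 and 1099 in Control. CM KO was higher by 1.09 ± 0.18 (adjusted p = 0.00863), and the ranges of the 3 other groups overlapped. Exons of Csf1r overlap the opposite-strand gene Hmgxb3. Spi1, the master transcription factor of the lineage, read in its row as Sfpi1, had 160.5, 66.7 and 135 in CM KO against 49.0 and 61.9 in Control. Its difference of 1.03 ± 0.52 did not pass (adjusted p = 0.281), with CM KO replicate 2 close to the higher Control library.

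Among the surface genes, 4 of the 6 counted were called. Trem2, a lipid-sensing receptor of macrophages, had 191, 64.8 and 104 in CM KO, 18.1, 29.3 and 39.8 in EC KO, 21.6, 46.0 and 50.05 in Total KO, and 23.3 and 35.8 in Control. The lowest CM KO library of Trem2 was above every library of the other groups, and the difference from Control was 1.88 ± 0.47 (adjusted p = 0.0374). Ms4a7, a membrane gene of macrophages, had 157, 60.2 and 71.1 in CM KO against 21.0 and 25.3 in Control and a difference of the same size, 1.88 ± 0.52, that did not pass (adjusted p = 0.0560). Cd14, the co-receptor for lipopolysaccharide, was higher by 1.19 ± 0.25, Ly86, a partner of a Toll-like receptor homologue, by 1.23 ± 0.32, and the integrin chain Itgb2 by 1.02 ± 0.23. Itgam, the chain that pairs with Itgb2, differed by 1.11 ± 0.35 and was not called (adjusted p = 0.0897), its Control libraries reading 55.2 and 116; the difference was 0.58 without Control replicate 1 and 1.65 without Control replicate 2. Adgre1, which encodes F4/80 and was read in the row Emr1, averaged 368 ± 167 in CM KO and 155 ± 0.812 in Control (adjusted p = 0.0328).

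Lysosomal and secreted effectors held the largest called difference, and 7 of 8 passed. Lgals3, the galectin that macrophages release on activation, had 393, 170.3 and 181 in CM KO, 60.4, 46.8 and 48.6 in EC KO, 50.9, 97.2 and 72.6 in Total KO, and 52.9 and 71.6 in Control. The difference from Control was 1.88 ± 0.35 (adjusted p = 0.0136), with CM KO replicates 2 and 3 nearly level and replicate 1 far above. Cd68, a glycoprotein of the lysosomal membrane, had 401, 221 and 276 in CM KO, 145, 119 and 137 in EC KO, 104, 157 and 171 in Total KO, and 84.7 and 122 in Control (CM KO minus Control 1.50 ± 0.26, adjusted p = 0.0121). Aif1, which encodes the calcium-binding protein IBA1, had 69.4, 36.3 and 71.1 in CM KO against 17.1 and 13.4 in Control (1.83 ± 0.47, adjusted p = 0.0416), and was the only one of the 32 genes with its highest CM KO value outside replicate 1.

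Lyz2 averaged 3782 ± 1628 in CM KO and 1481 ± 60.3 in Control (adjusted p = 0.0233). Its near-identical copy Lyz1 averaged 41.9 in CM KO and 12.5 in Control, and how reads were split between the copies was not tested. Ctss, a lysosomal protease, had 602 ± 269 in CM KO and 217 ± 6.39 in Control, and F13a1, a clotting factor subunit stored in macrophages, 1437 ± 565 in CM KO and 602 ± 69.5 in Control. Pf4, a chemokine made by platelets and by resident macrophages, had 204, 169 and 188 in CM KO against 86.3 and 94.7 in Control (1.04 ± 0.18, adjusted p = 0.0123). The platelet genes set beside it gave no call: of 6, 2 passed the filter, with differences of 0.27 and 0.30. Mpeg1, which encodes a pore-forming protein of macrophages, differed by 1.16 ± 0.33 and was not called (adjusted p = 0.0603).

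**Figure D3:**
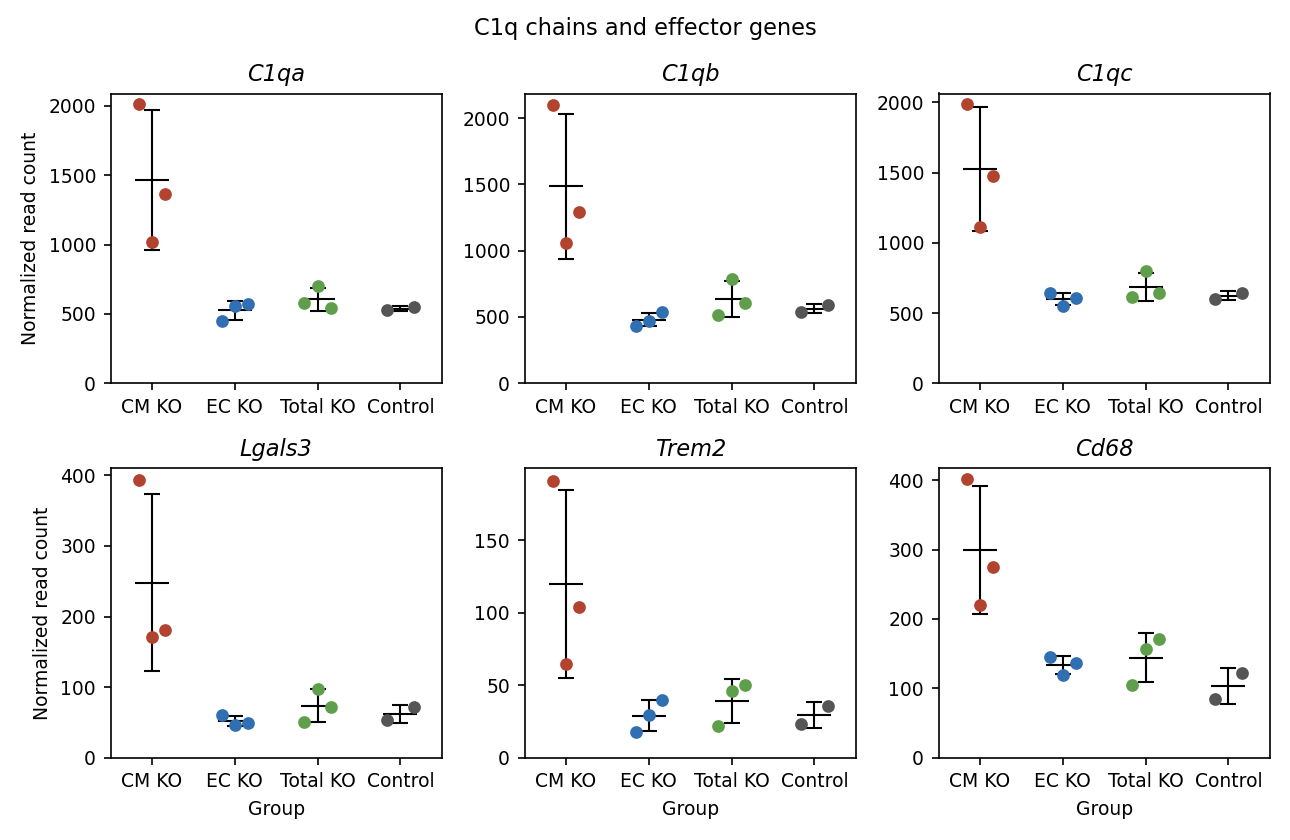
Normalized read counts of the 3 C1q chain genes and of Lgals3, Trem2 and Cd68 in CM KO, EC KO, Total KO and Control; dots are libraries, bars means and whiskers 1 SD. Within CM KO replicate 1 is the highest for each gene, at 2012 for C1qa, and EC KO, Total KO and Control overlap or lie close together.

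Of the 3 pan-leukocyte genes 2 were called, with differences from 0.61 to 1.07. Ptprc (CD45, present on all leukocytes) had 188, 147 and 115 in CM KO against 99.5 and 93.2 in Control, a difference of 0.61 ± 0.24 that was not called (adjusted p = 0.162). Cd53, a tetraspanin of leukocytes, averaged 157 ± 39.7 in CM KO and 73.6 ± 13.5 in Control (adjusted p = 0.0219). Laptm5, a lysosomal protein of blood cells, averaged 636 ± 253 in CM KO and 299.9 ± 103 in Control and passed at an adjusted p of 0.0480. Its difference of 1.05 was 0.69 without Control replicate 1, where it was not called.

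**Figure D4:**
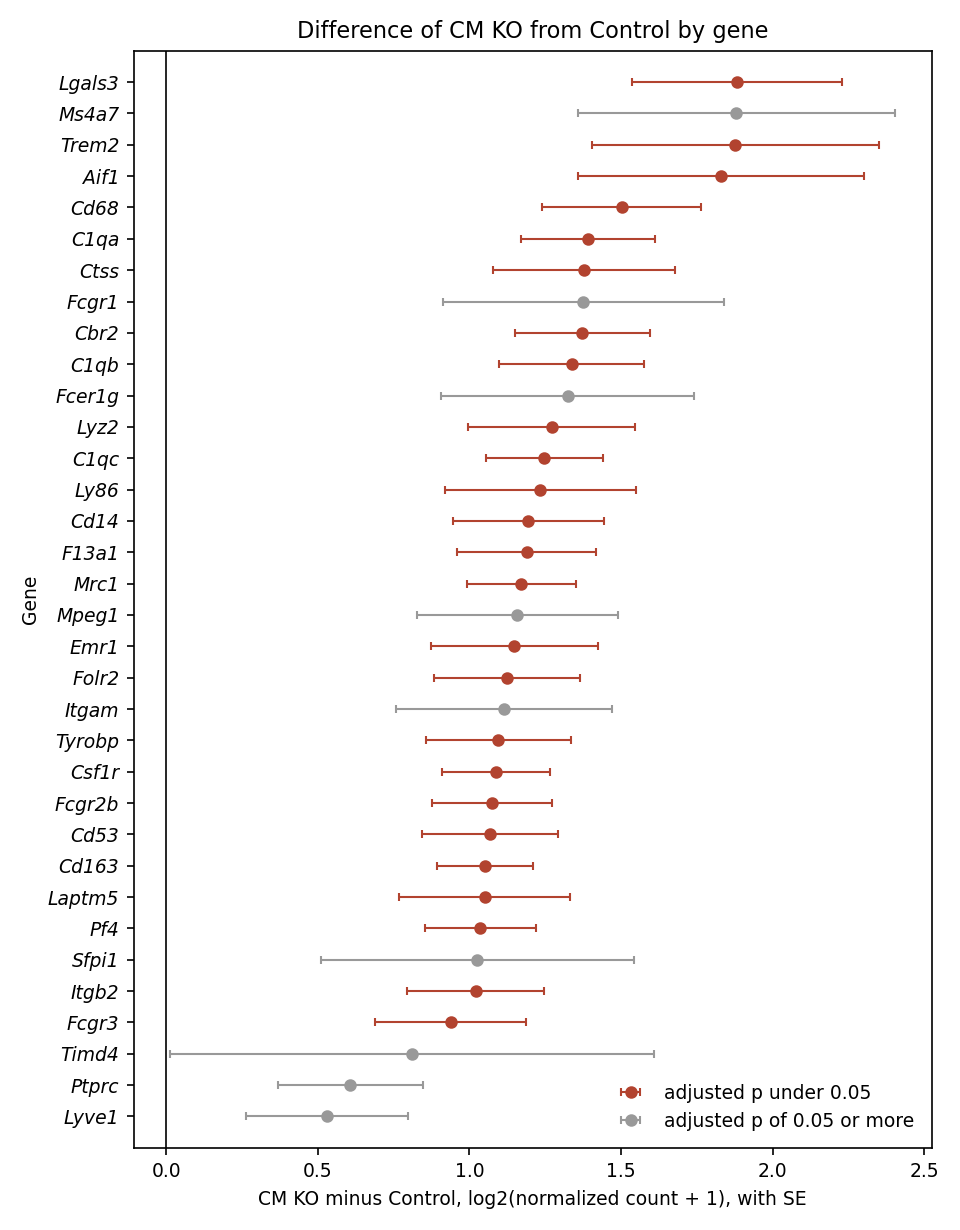
Log2 difference of CM KO from Control with its SE for the 32 genes and for Emr1 and Sfpi1, ordered by size; red points passed an adjusted p under 0.05 and grey points did not. All points lie to the right of 0, from 0.53 for Lyve1 to 1.88 for Lgals3, and the grey points at the bottom are Timd4, Ptprc and Lyve1.

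The 3 CM KO libraries differed from one another in step. Replicate 1 was the highest of the 11 libraries for 31 of the 32 genes, and within CM KO the order replicate 1, replicate 3, replicate 2 held for 28. The share of all genes with this peak or order was not counted, so neither is shown to be particular to the 32. The median distance of the 32 genes from the Control mean was 1.66 in CM KO replicate 1, 0.83 in replicate 2 and 1.10 in replicate 3, on the log2 scale. The summed normalized reads of the genes were 27535, 14630 and 18108 in CM KO, 7426, 7280 and 8404 in EC KO, 7485, 10327 and 8476 in Total KO, and 8117 and 8721 in Control. The lowest CM KO sum thus stood above the highest of any other group (10327). Resident-type genes made up 13.9%, 16.3% and 15.7% of that sum in CM KO and 17.4% and 16.2% in Control. The ranges of the 2 groups overlapped only narrowly, through CM KO replicate 2. CM KO replicates 1 and 3 lay below both Control libraries, and the difference was not tested.

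Set against the other knockouts, CM KO was also higher. Against EC KO, 31 of the 32 genes were called higher, where 10.4% of all genes were, and 0 lower, where 8.72% were, with a median of 1.42. The exception was Lyve1 (0.48 ± 0.24, adjusted p = 0.179). The 31 include Timd4 (2.27 ± 0.71, adjusted p = 0.0425), with a count of 0 in EC KO replicate 1, a library that sets no level for it. Without that library 30 of the 32 were called. The largest difference over all libraries was that of Ms4a7, 2.71 ± 0.47 (adjusted p = 0.00280), whose EC KO libraries read 6.04, 14.2 and 22.1. The 6.04, in EC KO replicate 1, was 1 read and below the floor of 18.1. Without that library the difference of Ms4a7 was 2.24, so its lead over the other genes is uncertain. Against Total KO, 29 of the 32 were called higher, where 8.2% of all genes were, with a median of 1.15. There Lgals3 led (1.68 ± 0.31, adjusted p = 0.00565), Cd163 differed by 1.34 ± 0.14 (adjusted p = 0.000579), and Timd4, Fcgr1 and Fcer1g were not called. Without CM KO replicate 1 the count against Total KO was 18, and leaving out any single library kept the count against EC KO between 29 and 31. The comparisons share the CM KO libraries, so they are not separate evidence.

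Neither EC KO nor Total KO differed from Control in any of the 32 genes at the adjusted threshold of limma. For EC KO, 0 were called (0.316% of all genes were, in either direction), and edgeR and DESeq2 on the recovered reads also called 0. In limma 1 of the 32 had an unadjusted p under 0.05, as had 1356 of all 12976 genes. The median of the 32 was -0.22, with 24 genes on the negative side; leaving out Control replicate 2 gave -0.10, and leaving out EC KO replicate 1 gave -0.14. The gene with the lowest p was Pf4, at 72.5, 57.7 and 60.1 in EC KO against 86.3 and 94.7 in Control (-0.51 ± 0.18, adjusted p = 0.354). In 7 genes, among them Pf4, C1qb, Itgb2, Ptprc and Cd53, all EC KO libraries were below both Control libraries, as for 13.2% of all genes. In 1, Cd163, all were above, as for 12% of all genes. Cd163 had a difference of 0.26 (adjusted p = 0.600) between EC KO and Control, and Cd68 one of 0.38 (adjusted p = 0.647).

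For Total KO, 0 of the 32 were called against Control (0.0848% of all genes were), and edgeR and DESeq2 called 0. In limma 0 of the 32 had an unadjusted p under 0.05, as had 1052 of all 12976 genes. The median was 0.06, with 22 genes on the positive side, but 1 library sets that direction: without Total KO replicate 2 it was -0.06 with 10 genes positive. It was 0.19 without Total KO replicate 1, 0.01 without Control replicate 1 and 0.15 without Control replicate 2. Cd163 and Lyve1 had all Total KO libraries below both Control libraries, as did Cd53; 12.8% of all genes did. The log2 differences were -0.29 (Cd163, adjusted p = 0.715) and -0.49 (Lyve1, adjusted p = 0.711), and neither passed. Total KO replicate 3 held the lowest values of both genes, 308 for Cd163 and 118 for Lyve1, and without it the difference of Lyve1 was -0.26 from Control and -0.31 from EC KO. Fcgr3 was the 1 gene with all Total KO libraries above Control (12.3% of all genes were), at 201.1, 276 and 209 in Total KO against 199.8 and 188 in Control.

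Total KO and EC KO were also compared with each other. In Total KO minus EC KO the median was -0.07 over the 6 resident-type genes and 0.30 over the 26 general ones, and 0 of the 32 were called by limma, edgeR or DESeq2 (0.0385% of all genes were called by limma). In limma 4 of the 32 had an unadjusted p under 0.05, as had 1355 of all 12976 genes. Of these 4, Cd163 (-0.55 ± 0.14, adjusted p = 0.232) and Lyve1 (-0.54 ± 0.24, adjusted p = 0.456) were lower in Total KO. Ms4a7 (1.18 ± 0.47) and Pf4 (0.41 ± 0.16, both adjusted p = 0.413) were higher. The difference of Ms4a7 was 0.71 without EC KO replicate 1. All Total KO libraries were below all EC KO libraries for Cd163 and Lyve1 only, as for 8.95% of all genes. The resident-type share of the summed reads was 18.2%, 14.3% and 12.9% in Total KO, and 21.1%, 19.6% and 18.8% in EC KO. These shares do not overlap, and the difference was not tested.

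Promoters are shown for 6 of the genes, because 5 of them were called together in CM KO and hold the motif GAGGAAG, a core of the sites bound by the factor that Spi1 encodes, and the last, Cd163, was called without it. RefSeq windows (GRCm38.p6) run from 250 bases before to 50 bases after a start site and were found for 26 of the 34 genes. The motif, searched on both strands (CTTCCTC on the other), was in a window of 12 of these 26 genes (46.2%), against 15.4% of all 27025 genes in the RefSeq table. Of the 12 genes with the motif, 10 were called higher in CM KO, and of the 14 without it, 9 were. A match is a run of letters in a window and not a measured binding site. Each sequence reads 5′ to 3′ along its gene with the motif, or its reverse complement, in capitals.
Mrc1: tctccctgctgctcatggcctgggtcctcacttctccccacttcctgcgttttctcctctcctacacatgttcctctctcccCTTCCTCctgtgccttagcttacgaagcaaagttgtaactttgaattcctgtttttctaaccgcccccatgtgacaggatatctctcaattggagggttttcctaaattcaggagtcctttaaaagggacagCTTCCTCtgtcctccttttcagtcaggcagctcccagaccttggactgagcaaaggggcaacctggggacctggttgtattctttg
Cbr2: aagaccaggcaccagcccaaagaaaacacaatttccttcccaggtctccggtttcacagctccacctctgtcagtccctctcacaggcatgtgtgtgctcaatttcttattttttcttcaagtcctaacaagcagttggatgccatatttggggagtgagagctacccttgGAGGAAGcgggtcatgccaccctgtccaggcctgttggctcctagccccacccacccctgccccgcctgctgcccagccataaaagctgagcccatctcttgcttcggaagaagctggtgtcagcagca
Trem2: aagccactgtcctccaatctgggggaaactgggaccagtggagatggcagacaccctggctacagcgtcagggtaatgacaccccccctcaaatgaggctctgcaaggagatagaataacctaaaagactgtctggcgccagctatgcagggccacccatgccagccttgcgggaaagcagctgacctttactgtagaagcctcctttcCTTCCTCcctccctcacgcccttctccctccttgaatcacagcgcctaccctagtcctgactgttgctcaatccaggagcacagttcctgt
Ctss: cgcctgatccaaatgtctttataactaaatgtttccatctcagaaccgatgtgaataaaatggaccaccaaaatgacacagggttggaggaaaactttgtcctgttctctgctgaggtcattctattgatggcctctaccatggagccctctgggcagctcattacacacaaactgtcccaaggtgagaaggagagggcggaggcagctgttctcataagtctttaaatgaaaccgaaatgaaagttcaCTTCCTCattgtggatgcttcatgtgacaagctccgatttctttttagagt
C1qc: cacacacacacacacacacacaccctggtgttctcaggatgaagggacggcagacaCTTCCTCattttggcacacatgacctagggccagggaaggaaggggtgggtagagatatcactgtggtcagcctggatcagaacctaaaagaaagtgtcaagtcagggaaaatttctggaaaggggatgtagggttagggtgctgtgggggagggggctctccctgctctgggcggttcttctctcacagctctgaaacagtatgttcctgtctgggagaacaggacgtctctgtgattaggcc
Cd163: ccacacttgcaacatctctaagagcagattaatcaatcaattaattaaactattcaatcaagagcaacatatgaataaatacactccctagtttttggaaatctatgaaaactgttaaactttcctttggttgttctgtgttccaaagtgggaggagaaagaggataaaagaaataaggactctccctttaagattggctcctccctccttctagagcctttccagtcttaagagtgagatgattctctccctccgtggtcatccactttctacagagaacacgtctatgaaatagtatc

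The windows are chr2:14229164-14229463 on the plus strand for Mrc1, chr11:120731972-120732271 on the minus strand for Cbr2, chr17:48346151-48346450 on the plus strand for Trem2, chr3:95526536-95526835 on the plus strand for Ctss, chr4:136892865-136893164 on the minus strand for C1qc and chr6:124304401-124304700 on the plus strand for Cd163. In Mrc1 the motif began 168 and 36 bases before the start site, in Trem2 41 and in Cbr2 79 bases before it. In Ctss it began 1 base before the start and in C1qc 194 bases before. The 6 genes span log2 differences between CM KO and Control of 1.05 (Cd163) to 1.88 (Trem2).

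Genes that work with the 34 were read from further lists, chosen by function. Of complement genes other than C1q, 7 of 12 were called higher in CM KO than in Control and 0 lower, with a median of 1.01. C4b, a substrate of the C1 complex, had 2098, 729.8 and 921 in CM KO against 194 and 321 in Control (2.16 ± 0.43, adjusted p = 0.0181). The receptor gene C3ar1 averaged 290.3 ± 86.8 in CM KO and 95.4 ± 16.8 in Control, and C5ar1, the other anaphylatoxin receptor gene, averaged 195 ± 60.0 in CM KO and 61.4 ± 17.6 in Control. Of further resident and tissue macrophage genes, 5 of 11 were called, among them Vsig4, a complement receptor (2.15 ± 0.56), the lectin Clec10a (1.19), the scavenger receptor Stab1 (0.95) and the ligand Gas6 (0.70). Without Control replicate 1 the difference of Vsig4 was 1.38 and was not called. Clec10a departed from the usual order within CM KO, with 64.0 in replicate 1 and 131 and 122 in replicates 2 and 3.

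Fewer genes passed in the other myeloid lists. In the list of signalling genes 3 of 11 were called: Ptpn6, the phosphatase of inhibitory receptors (1.11 ± 0.25), Inpp5d, which encodes SHIP1 (0.64 ± 0.14), and Sirpa, an inhibitory receptor (0.65 ± 0.17). Sirpa was called in 1 of the 11 fits that left out a library, Ptpn6 and Inpp5d in 8 each. Of the phagocyte oxidase subunits 2 of 5 were called, Ncf1 (1.45 ± 0.29) and Cybb (0.98 ± 0.26). Of lipid-handling genes often seen with Trem2, 2 of 10 were called, Gpnmb (1.42 ± 0.31) and Apoe, a lipid carrier (8372 ± 1993 in CM KO and 4444 ± 70.0 in Control). Of monocyte genes 5 of 12 passed the filter, with a median of 1.07, as in the further resident list, and 3 at an unadjusted limma p under 0.05. Limma called 1, Ccr2, the receptor for recruitment from blood. It had 91.0, 70.6 and 57.2 in CM KO against 29.5 and 27.6 in Control (1.30 ± 0.35, adjusted p = 0.0473). Ccr2 was called in 3 of the 11 fits that left out a library, with a difference between 1.13 and 1.46. Of 10 transcription factors other than Spi1, limma called 0 (6 at an unadjusted p under 0.05), edgeR 0 and DESeq2 1, with a median of 0.52. Over all 12976 genes, 2729 had such an unadjusted limma p between CM KO and Control.

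Few genes passed limma's adjusted test among ligands and antigen presentation. On recovered reads edgeR called 4 of 9 ligands and 2 of 6 MHC class II genes, and DESeq2 called 4 and 3. Csf1, the growth factor of macrophages, was the 1 ligand of 9 called by limma (median of the list 1.02). It had 1009, 1135 and 807 in CM KO against 479 and 716 in Control (0.73 ± 0.18, adjusted p = 0.0335). Its difference was 0.44, not called, without Control replicate 1. Of 6 MHC class II genes 2 were called, Cd74, the invariant chain (1732 ± 234 in CM KO and 1151 ± 27.4 in Control), and H2-Ab1 (583 ± 76.7 in CM KO and 412 ± 46.6 in Control). For both, CM KO replicate 3 was the highest library, unlike the 31 genes that were highest in replicate 1. H2-Ab1 was called in 2 of the 11 fits that left out a library, Cd74 in 9. Without Control replicate 1, limma called 0 genes of each of these lists, and 11 genes higher and 15 lower over all genes.

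**Figure D5:**
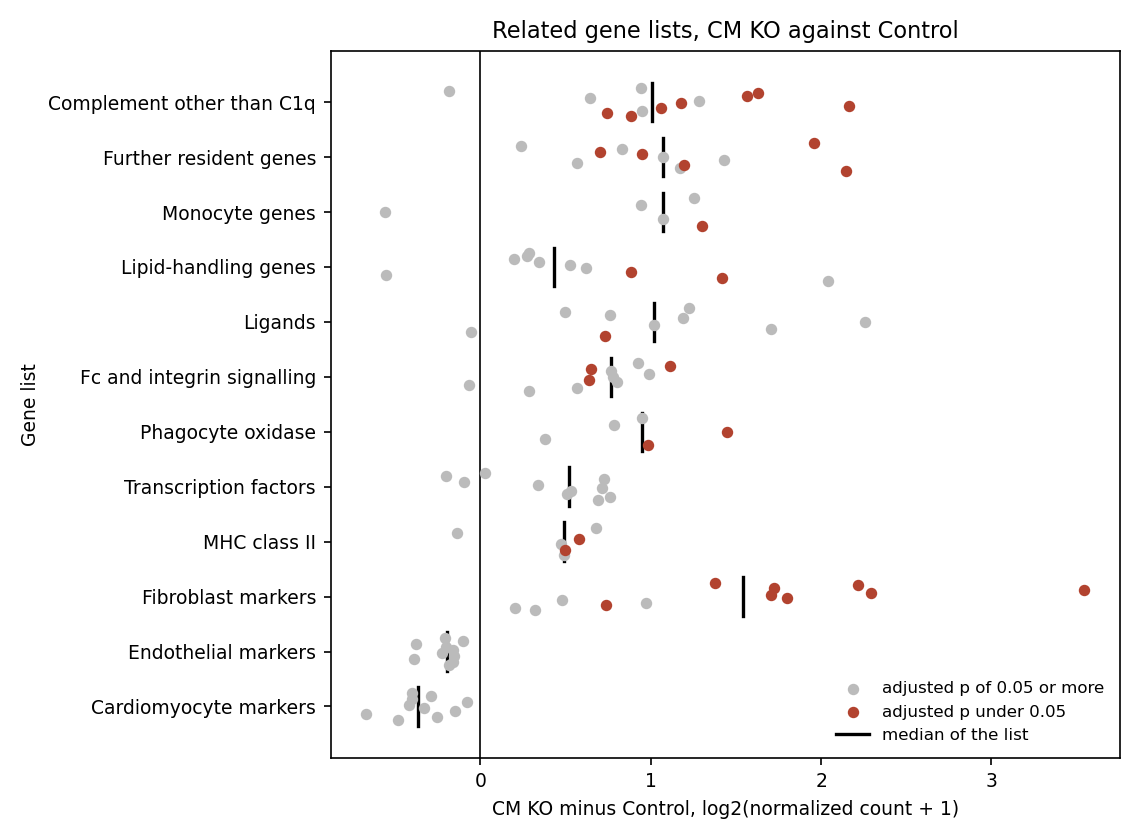
Each point is a gene that passed the filter, placed by its log2 difference between CM KO and Control, in 12 lists of related genes and cell types; red points passed an adjusted p under 0.05, grey points did not, and the vertical bars are list medians. Complement, further resident and monocyte genes have medians of 1.01, 1.07 and 1.07, the fibroblast markers spread widest, up to 3.54 for Postn, and endothelial and cardiomyocyte markers lie below 0.

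Markers of other cell types moved beside the macrophage genes, and their part in the result was not tested. The unadjusted counts below stand beside 2729 of all 12976 genes with a limma p under 0.05 between CM KO and Control. Of 12 fibroblast markers 8 were called higher in CM KO than in Control (median 1.54), with a summed level of 33753 to 100351 in CM KO and 20334 to 21322 in Control. Postn, a matrix gene of activated fibroblasts, had 24012, 2831 and 3723 in CM KO against 492 and 597 in Control, so replicate 1 stood highest here too. Mfap5 (2.22 ± 0.40), Pi16 (1.73 ± 0.28) and Cd248 (1.37 ± 0.22) were the other fibroblast genes with the lowest p. Of 10 cardiomyocyte markers 0 were called by limma (2 at an unadjusted p under 0.05), and DESeq2 called 1 lower, with a median of -0.37 and summed levels of 859132 to 1239485 in CM KO and 1390328 to 1410384 in Control. Of 10 endothelial markers limma, edgeR and DESeq2 called 0 (1 at an unadjusted p under 0.05 in limma), with a median of -0.20. Neutrophil, T and NK cell, B cell, mast cell and platelet lists were near the floor. The dendritic cell list was above it, with 2 genes that also reached a mean of 50 and a median of -0.17. At most 3 genes of any of these lists passed the filter of 10, and limma, edgeR and DESeq2 called 0. In limma 1 of these genes, a neutrophil marker that was higher in CM KO (0.87), had an unadjusted p under 0.05. Without the filter, 4 of 9 neutrophil markers had such a p in limma, with a list median of -0.41, so the list held both directions. Of 6 lymphatic endothelial markers, the other source of Lyve1, 5 passed the filter and limma called 0 (2 at an unadjusted p under 0.05; median 0.21). The 2 erythroid genes that passed the filter were not called, and no adipocyte marker passed it. The summed neutrophil markers were 50.7 to 57.9 in CM KO and 45.5 to 82.4 in Control, and those of B cells 24.7 to 42.5 in CM KO and 29.1 to 34.2 in Control.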

How the data were processed

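Mouse heart RNA (400 ng of total RNA per library, stranded libraries after ribosomal RNA removal, per the labels' protocols) was sequenced in 11 libraries. Per the submitters' processing notes, TopHat2, HTSeq 0.8.0 and DESeq2 (given as version 3.5) were used on mm10; the annotation, counting mode and strand setting are not given in the sources used here. The deposited signal values are gene-level read counts scaled by the authors with a single factor for each library. Whole reads were recovered from them: in units of a library's smallest step, all 257620 values (100%) came within 0.05 reads of a whole number.

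Genes whose mean reached 10 entered the tests as log2(value + 1). A single model by group covered the 11 libraries (limma 3.58.1 with a trended prior, R 4.3.3), and p-values were adjusted by Benjamini-Hochberg over the 12976 genes of a comparison and called under 0.05. A fold on this scale understates changes of low genes. On recovered reads, edgeR 4.0.16 (quasi-likelihood) and DESeq2 1.42.0 called 587 and 714 genes higher and 420 and 562 lower in CM KO than in Control, against 427 higher and 312 lower in limma. Steps were tested on simulated data. Also tried were no filter, a mean of 50, a pseudocount of 0.5 or 5, equal library totals or upper quartiles, the 2 groups alone, each library left out, and replicates 1 of CM KO, EC KO and Total KO left out together; the 2 synonym matches were added after the data were seen.

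Members, the 21 related lists and the tests were chosen with earlier results of these data known, so the lists are described by counts and medians without a test. All members are named; of the related lists, genes called in a described comparison are named, at most 4 a list by lowest p. One such gene is not reported here. Levels per kilobase use the union of exons in GENCODE M21 (GRCm38). Floors (3 reads) cover counting error only. A ± beside a log2 difference is the SE from limma, and a ± beside a mean is the SD over libraries.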

Additional observations from a re-analysis of the deposited data

How the results depend on the processing

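Between CM KO and Control, 24 of the 32 genes were called; a fit to the 2 groups alone called 2, and leaving out 1 library at a time called 0 to 27. The 0 came without Control replicate 1, where all 32 differences were still positive (median 1.21) and 26 had an unadjusted p under 0.05; the lone Control library is then assumed to vary like the other groups. On recovered reads edgeR called 27 and DESeq2 29. Between CM KO and Total KO the count was 29, and it was 18 without the 3 replicates 1, and 18 to 30 with 1 library left out. The cause of these shifts was not tested. Against EC KO, each alternative on the 32 genes called 27 or more. The counts of 0 for EC KO minus Control, Total KO minus Control and Total KO minus EC KO held in every alternative run. Scaling to equal library totals moved the median of all genes by 0.12 (CM KO minus EC KO) and 0.14 (CM KO minus Total KO), below the medians of the 32 genes, 1.42 and 1.15. No alternative turned the sign of a gene's printed difference. No paired analysis was possible because the labels tie no libraries together across groups. EC KO replicate 1, with 2268403 reads, and the Control group of 2 libraries limit the precision.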

Other observations

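In EC KO 1 gene of the lipid-handling list was called against Control. Ctsl, a lysosomal cysteine protease that many cell types make, had 6737, 7208 and 8717 normalized reads in EC KO against 4270.1 and 3419.8 in Control (0.97 ± 0.17, limma adjusted p = 0.0392). It was called in 11 of 21 alternatives and in 3 of the 11 fits that left out a library, with a difference between 0.81 and 1.13. In Total KO it read 6147, 6583 and 6714, and in CM KO 5841, 3781 and 4489. Cd68, the C1q chains and the other lysosomal genes of the 32 were not called in EC KO.

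Between CM KO and EC KO, all 6 MHC class II genes were called higher in CM KO (0.89 to 1.17), where 10.4% of all genes were. Among them were H2-Ab1 (1.06 ± 0.11, limma adjusted p = 0.000285), the invariant chain gene Cd74 (0.89 ± 0.11, adjusted p = 0.000478), H2-Eb1 (0.91 ± 0.13) and H2-Aa (0.96 ± 0.15). Cd74 averaged 1732 ± 234 in CM KO and 934 ± 103 in EC KO (SD, n = 3 each). In the same comparison 6 of 10 endothelial markers were called lower in CM KO, where 8.72% of all genes were. Among them were Pecam1 (2967 ± 52.3 in CM KO and 4218 ± 291 in EC KO) and Cdh5 (3579 ± 219 in CM KO and 4801 ± 396 in EC KO, SD, n = 3 each). Cdh5 was not called without EC KO replicate 2 (-0.36) or with equal library totals (-0.30). Robo4 differed by -0.47 ± 0.08 and Esam by -0.44 ± 0.09. Against Control, the MHC class II median was 0.49 in CM KO and -0.48 in EC KO. The endothelial median was -0.20 in CM KO and 0.17 in EC KO. In EC KO minus Control limma called 0 of either list. There 5 of 6 MHC class II genes and 5 of 10 endothelial markers had an unadjusted limma p under 0.05, as had 1356 of all 12976 genes. By these medians CM KO and EC KO lay on opposite sides of Control in both lists.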
